A study of Homo sapiens with 6 samples.

Results

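The aminoacyl-tRNA synthetases of HEK293T cells were examined as 36 mRNAs, 20 in a cytosolic set and 16 in a mitochondrial set. Members were taken by gene symbol and not by a cut on any measured value. The set was chosen with earlier results of these data known. The mitochondrial set took the symbols that end in 2, and the cytosolic set took the rest, with EPRS, GARS, KARS and QARS included. The 36 genes had 52 of the 39618 rows of the expression tables, which cover 23204 symbols. Where a symbol had several rows, the row of highest mean expression over the 6 libraries was used.

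HEK293T cells derive from human embryonic kidney and express a viral large T antigen. RNA-seq was performed in 6 groups of 1 library each. In the knockdown arm, cells were treated for 48 h with control siRNA or with siRNA against DDX3X, an RNA helicase that acts in translation initiation. In the over-expression arm, cells were transiently transfected for 32 h with 5 µg of plasmid for GFP alone, or for GFP fused to wild-type DDX3X (WT), DDX3X T275M or DDX3X G302V, and GFP-positive cells were collected by flow cytometry. All 6 groups kept their endogenous DDX3X gene, and no sort was described for the siRNA-treated cells. The T275M library is identified by its label alone, since a figure legend of the study names another second mutant. The arms differed in transfection, time and sorting, which cannot be told apart in any comparison between them. The study asked whether depletion of DDX3X, or over-expression of the medulloblastoma-associated mutants, alters mRNA levels.

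A synthetase charges a tRNA with its amino acid and so sets the supply of substrate for the ribosome. Human cells hold a cytosolic set, several of whose enzymes assemble into a multisynthetase complex, and a mitochondrial set encoded by separate nuclear genes that serves the translation of mitochondrial mRNAs. GARS and KARS each encode the cytosolic and the mitochondrial enzyme for glycine and lysine. EPRS joins the glutamate and the proline enzymes in a single protein. Many cytosolic synthetase genes are known targets of ATF4, a transcription factor of the amino acid response.

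Levels are given as RPKM, a read count scaled by transcript length and by library size. A difference between a pair of libraries is given as the log2 ratio of (RPKM + 1), with a 95% interval from the reads behind each value. These intervals cover counting error only. With 1 library per group there is no estimate of the spread between replicates and no test, so each ratio compares 2 libraries and not 2 conditions. A member was counted as lower or higher at an absolute log2 ratio of at least 0.3, which is 1.23-fold. This is a rule of size. All 36 members passed the filter on low values in every comparison.

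Depth ranged from about 43720000 reads in the G302V library to 180870000 in the DDX3X siRNA library. DDX3X was at 107 RPKM with control siRNA and at 31.3 RPKM with DDX3X siRNA, 29.3% of control. It was at 119 RPKM with GFP, 2894 with WT, 3279 with T275M and 1906 with G302V. The sample labels call the cells neuronal. Of 14 neuronal markers, 9 reached 1 RPKM in some library, led by NEFM at 514 to 683 RPKM and NEFL at 109 to 140, whereas RBFOX3, MAP2, NEFH, SLC17A7 and GAD2 stayed below 1 RPKM throughout. The 14 markers summed to 657 to 852 RPKM per library. Embryonic kidney markers reached 1 RPKM for 3 of 6 genes, and glial markers for 0 of 4. RNA came from whole cultures or sorted populations, so fewer cells of a type and less RNA per cell cannot be told apart.

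The cytosolic synthetases were the more abundant set. Their median level lay between 85.2 RPKM (DDX3X siRNA) and 110 RPKM (WT), against 19.7 RPKM (DDX3X siRNA) to 23.3 RPKM (GFP) for the mitochondrial set. IARS, the isoleucine enzyme, had the highest mean level over the 6 libraries at 162 RPKM, followed by SARS at 149 and FARSA at 148. CARS, the cysteine enzyme, had the lowest mean of the cytosolic set at 29.5 RPKM. In the mitochondrial set, IARS2 stood apart with a mean of 141 RPKM, TARS2 followed at 54.8 RPKM, and FARS2 and PARS2 were the lowest at 6.32 and 5.16 RPKM. Each of the 17 pairs that share an amino acid had the higher mean level in the cytosolic member, from 1.15 times for IARS over IARS2 to 23.4 times for FARSA over FARS2.

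**Figure D1:**
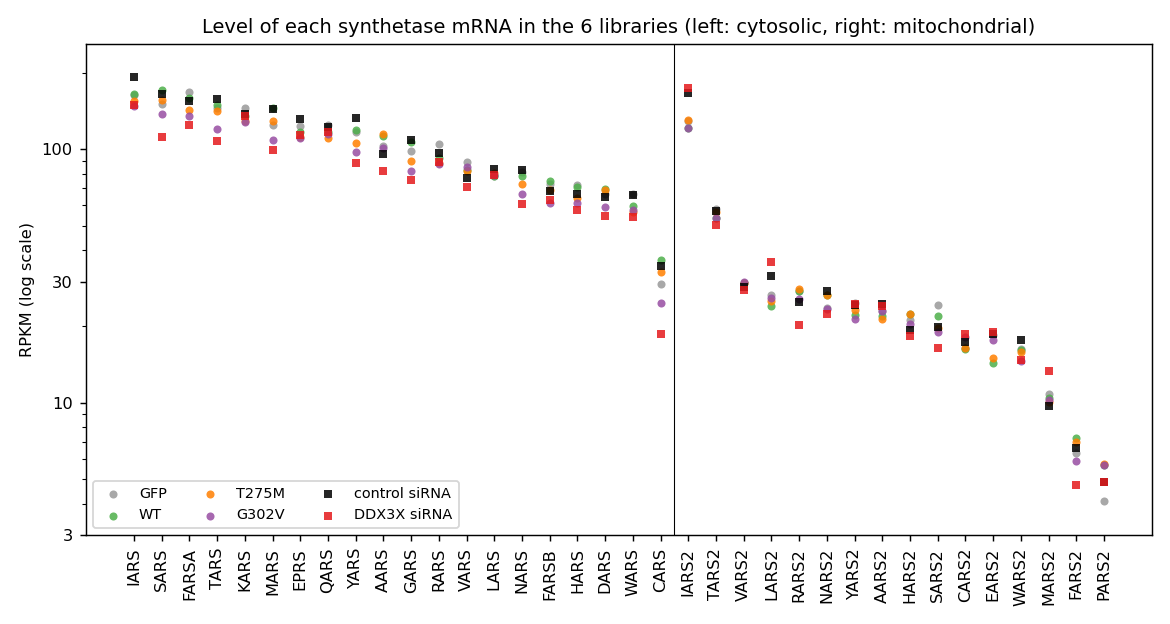
Level of each of the 36 synthetase mRNAs (RPKM, log scale) in the 6 libraries, each point 1 library, with the cytosolic set at the left and the mitochondrial set at the right, ordered by mean level. Squares are the siRNA arm and circles the over-expression arm. CARS ranges from 18.8 to 36.6 RPKM, and the red squares of DDX3X siRNA lie lowest for 13 of the 20 cytosolic mRNAs.

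Reads of the cytosolic set made up 0.646% of the control siRNA library and 0.520% of the DDX3X siRNA library. In the over-expression arm, they made up 0.621% with GFP, 0.625% with WT, 0.589% with T275M and 0.551% with G302V. The cytosolic share was thus lowest with DDX3X siRNA and next lowest with G302V. The mitochondrial share was 0.153% with control siRNA, 0.152% with DDX3X siRNA and 0.131% to 0.138% in the over-expression arm. Without IARS2, whose level was higher in both siRNA libraries, the mitochondrial share was 0.0919% with GFP, 0.0876% to 0.0887% with the DDX3X constructs, 0.0935% with control siRNA and 0.0906% with DDX3X siRNA. IARS2 thus carried the difference between the arms.

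Depletion of DDX3X was accompanied by lower levels of cytosolic synthetase mRNAs. All 20 cytosolic mRNAs had a log2 ratio below 0, as had 54.5% of the 12694 genes compared. The set's median was -0.26, against -0.037 for the mitochondrial set and -0.024 over all genes. When libraries were scaled by the median ratio of their genes, 17 of 20 were below 0, with KARS, LARS and QARS above it, and the median was -0.18 against 0.048 over all genes. The difference between the set medians was -0.23. The medians of the members' interval limits, subtracted, gave -0.30 and -0.14. These limits hold counting error alone, leave out the spread among members and are not a confidence interval. Of the 20, 9 were lower by the rule of size (CARS, YARS, SARS, TARS, MARS, GARS, NARS, IARS and FARSA), which 9.14% of all genes met. Lower by 1.5-fold or more were 2 of 20, against 0.961% of all genes, and 0 of 20 reached 2-fold, against 0.063% of all genes. No cytosolic synthetase was higher by the rule, which 8.67% of all genes were. Under median-ratio scaling 7 of 20 were lower, and over all genes 5.19% were lower and 14.0% higher. IARS (-0.28) and FARSA (-0.23) were then inside the rule. The DDX3X siRNA library was also the deepest, at 180870000 reads against 67520000 for control siRNA, and the part of depth in these ratios was not tested.

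CARS had the lowest ratio. The gene lies at chr11:3022152-3078843 (GRCh37, minus strand). Its level was 34.5 RPKM with control siRNA and 18.8 with DDX3X siRNA, and 29.4, 36.6, 32.9 and 24.8 RPKM with GFP, WT, T275M and G302V. The DDX3X siRNA library was the lowest of the 6 and G302V the next. The log2 ratio on knockdown was -0.85 (interval -0.89 to -0.80), or 54.4% of control, and 0.181% of all genes had a ratio as low. The 5 rows of the gene gave ratios between -0.85 and -0.84.

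YARS, the tyrosine enzyme (chr1:33240838-33283632, minus strand), was at 133 RPKM with control siRNA and 88.1 with DDX3X siRNA, and at 117, 119, 106 and 97.0 RPKM with GFP, WT, T275M and G302V. Control siRNA was its highest library and DDX3X siRNA its lowest. The log2 ratio on knockdown was -0.59 (-0.61 to -0.57). SARS, the serine enzyme (chr1:109756540-109780804, plus strand), was at 165 and 112 RPKM in these siRNA libraries and at 151, 171, 156 and 138 RPKM with GFP, WT, T275M and G302V. Its lowest library was also DDX3X siRNA, with a log2 ratio of -0.56 (-0.58 to -0.54). Another row of SARS, at a mean of 22.0 RPKM, gave -0.67.

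TARS, which charges threonine tRNA (chr5:33440802-33468196, plus strand), was at 158 RPKM with control siRNA and 107 with DDX3X siRNA, and at 145, 149, 142 and 120 RPKM with GFP, WT, T275M and G302V. MARS, the methionine enzyme (chr12:57869228-57911352, plus strand), was at 145 and 99.1 RPKM in the siRNA libraries and at 125, 146, 129 and 109 RPKM in the same order of constructs. For TARS and MARS alike, DDX3X siRNA was lowest and G302V next. Their log2 ratios on knockdown were -0.56 (-0.58 to -0.54) and -0.54 (-0.56 to -0.52). Of the bases in all annotated exons of MARS, 12.4% are shared with ARHGAP9 and DDIT3. This share, like those given below for other genes, is not taken over the transcript row used. The library kit does not mark strand, so reads of overlapping genes cannot be separated. DDIT3 itself was at 15.0 RPKM with control siRNA and 11.5 with DDX3X siRNA, far below MARS, and its part in the MARS ratio was not tested.

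GARS, the glycine enzyme of cytosol and mitochondria (chr7:30620149-30673649, plus strand), was at 109 RPKM with control siRNA and 75.5 with DDX3X siRNA, and at 98.6, 107, 89.8 and 82.0 RPKM with GFP, WT, T275M and G302V. Its log2 ratio was -0.52 (-0.55 to -0.50). NARS, the asparagine enzyme (chr18:55267888-55289445, minus strand), was at 82.9 and 61.1 RPKM in the siRNA libraries and at 81.1, 78.6, 72.7 and 66.6 RPKM with the constructs, a ratio of -0.44 (-0.46 to -0.41). Both had their lowest level with DDX3X siRNA. IARS (chr9:94972489-95056136, minus strand) was at 193 and 150 RPKM in the siRNA libraries, against 148 to 164 RPKM in the over-expression arm. Here control siRNA stood above the other 5 libraries, and the ratio was -0.36 (-0.38 to -0.35). FARSA, the alpha subunit of the phenylalanine enzyme, was at 155 and 125 RPKM, a ratio of -0.31 just past the rule. In GFP, WT, T275M and G302V its level was 168, 159, 143 and 136 RPKM. Its partner subunit FARSB was at 68.5 and 63.0 RPKM, a ratio of -0.12.

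Among EPRS, GARS, KARS and QARS, GARS was the exception. EPRS was at 131 RPKM with control siRNA and 114 with DDX3X siRNA, and at 123, 117, 112 and 110 RPKM with GFP, WT, T275M and G302V. KARS was at 138 and 135 RPKM in the siRNA libraries and at 145, 135, 130 and 128 RPKM with the constructs. QARS, the glutamine enzyme, was at 123 and 116 RPKM in the siRNA libraries and at 124, 117, 111 and 115 RPKM with the constructs. For KARS and QARS the 6 libraries differed by at most 1.14 and 1.12 times. The ratios on knockdown were -0.20 for EPRS, -0.032 for KARS and -0.076 for QARS. KARS, which serves both compartments as GARS does, was the cytosolic mRNA nearest to 0.

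The remaining cytosolic mRNAs were all below 0 and inside the rule. WARS, the tryptophan enzyme, lay just short of it at -0.28, from 65.7 RPKM with control siRNA to 54.0 with DDX3X siRNA, and it was at 66.8, 60.0, 56.5 and 57.7 RPKM with GFP, WT, T275M and G302V. DARS (-0.25), AARS (-0.21) and HARS (-0.20), for aspartate, alanine and histidine, followed. RARS (-0.13), VARS (-0.11) and LARS (-0.078), for arginine, valine and leucine, were nearer to the all-gene median. Overlaps with other genes cover 10.6% of the exonic bases of WARS and 8.46% of those of HARS, which shares bases with HARS2. LARS was the steadiest of the cytosolic set, at 83.6 RPKM with control siRNA, 79.1 with DDX3X siRNA, and 78.7, 78.2, 80.9 and 79.0 RPKM with GFP, WT, T275M and G302V.

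**Figure D2:**
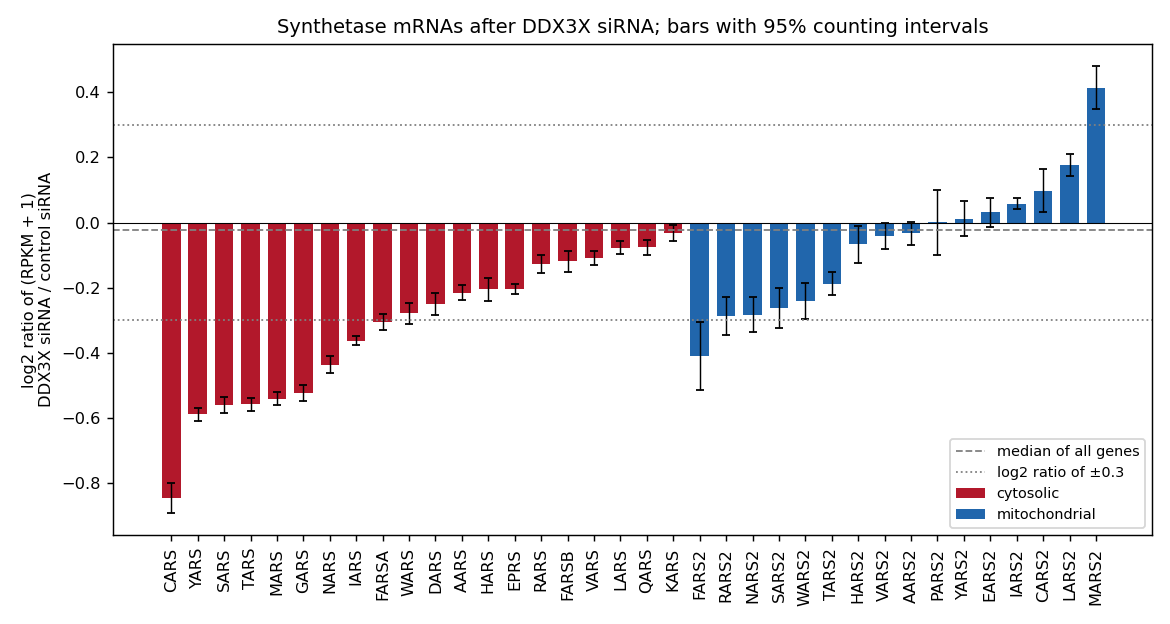
Log2 ratio of (RPKM + 1) between the DDX3X siRNA and control siRNA libraries for each synthetase mRNA, red for cytosolic and blue for mitochondrial, with 95% counting intervals as error bars. The dashed line is the all-gene median of -0.024 and dotted lines mark ±0.3. All red bars point down, from -0.85 for CARS to -0.032 for KARS, while blue bars run from -0.41 for FARS2 to 0.41 for MARS2.

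Grouped by structure, free enzymes had lower ratios than those of the complex, and the medians of the enzyme classes were alike on knockdown. The 8 enzymes of the multisynthetase complex (DARS, EPRS, IARS, KARS, LARS, MARS, QARS and RARS) had a median log2 ratio of -0.17, with 2 of 8 lower by the rule (IARS and MARS). The 12 free cytosolic enzymes had a median of -0.37, with 7 of 12 lower, against 9.14% of all genes. Under median-ratio scaling IARS of the complex and FARSA of the free enzymes were inside the rule, at -0.28 and -0.23. Class I and class II synthetases, which differ in the fold of their catalytic domain, had like medians of -0.28 over 9 genes and -0.28 over 10, leaving out EPRS, which holds a domain of each class. AIMP1, AIMP2 and EEF1E1, the scaffold proteins of the complex, lay between -0.19 and 0.16, with 0 of 3 past the rule. The contrast of complex and free enzymes was not tested.

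Of the mitochondrial set, 1 of 16 mRNAs was lower and 1 was higher by the rule on knockdown, and 9 of 16 lay below 0. These counts were near the shares over all genes, 9.14% lower, 8.67% higher and 54.5% below 0. FARS2, the phenylalanine enzyme (chr6:5261277-5829425, plus strand), was at 6.61 RPKM with control siRNA and 4.73 with DDX3X siRNA, and at 6.35, 7.27, 7.03 and 5.90 RPKM with GFP, WT, T275M and G302V. Its order of libraries was like that of CARS, with DDX3X siRNA lowest and G302V next. Its log2 ratio was -0.41, with a wide interval of -0.51 to -0.30 from 822 and 1575 reads. MARS2, the methionine enzyme (chr2:198570093-198573119, plus strand), was at 9.74 RPKM with control siRNA and 13.3 with DDX3X siRNA, and at 10.8, 10.4, 10.0 and 10.3 RPKM with the constructs. The DDX3X siRNA library alone stood above the narrow range of the other 5, and the ratio was 0.41 (0.35 to 0.48). MARS, its cytosolic counterpart, went the other way by -0.54.

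RARS2 was at 24.9 RPKM with control siRNA and 20.2 with DDX3X siRNA, and at 27.6, 27.6, 28.2 and 25.7 RPKM with GFP, WT, T275M and G302V. NARS2 was at 27.5 and 22.4 RPKM in the siRNA libraries and at 23.6, 26.6, 26.6 and 23.3 RPKM with the constructs. Their ratios of -0.29 and -0.28 lay just short of the rule, beside SARS2 at -0.26 and WARS2 at -0.24. On the other side, LARS2, the leucine enzyme, was at 31.7 RPKM with control siRNA and 35.9 with DDX3X siRNA, and at 26.7, 24.0, 25.3 and 25.9 RPKM with the constructs. CARS2 was at 17.3 and 18.6 RPKM in the siRNA libraries and at 16.5, 16.3, 16.5 and 18.2 RPKM with the constructs. Both had their highest level with DDX3X siRNA, with ratios of 0.18 and 0.098. TARS2 was at -0.19, HARS2 at -0.067, VARS2 at -0.041 and AARS2 at -0.034, and PARS2, YARS2, EARS2 and IARS2 lay between 0.00 and 0.058. Under median-ratio scaling the mitochondrial median turned from -0.037 to 0.042, and AARS2, HARS2 and VARS2 changed sign.

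Of the 17 pairs that share an amino acid, the cytosolic member had the lower ratio on knockdown in 14, with a median difference of -0.20. The widest gaps were MARS against MARS2 at -0.96, CARS against CARS2 at -0.94 and YARS against YARS2 at -0.60. The exceptions were RARS, FARSA and FARSB, whose mitochondrial partners had lower ratios. FARS2 is the partner of FARSA and of FARSB, and EPRS is that of EARS2 and PARS2, so the pairs are not all distinct genes.

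Promoter sequence was examined for 30 of the 36 genes, from RefSeq windows on GRCh38.p14 that run from 250 bases before to 50 after a gene's start. DARS, LARS, VARS, YARS, AARS2 and VARS2 had no window in the table. The core of the C/EBP-ATF response element, TGATGNAA, was searched on both strands. It was found in 7 of 16 cytosolic genes and in 1 of 14 mitochondrial genes (YARS2), against 3.62% of all 35116 windows and 2.57% of the 9648 genes of the knockdown comparison that have a window. Each match is shown with its flanks, since 6 of the 7 cytosolic genes that hold it were lower by the rule. Of these 6, IARS was inside the rule under median-ratio scaling (-0.28). Letters are on the gene's own strand, 5′ to 3′, and capitals mark the match.
CARS, chr11:3057407-3057436 (minus strand): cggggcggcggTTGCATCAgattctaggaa
MARS, chr12:57488053-57488082 (plus strand): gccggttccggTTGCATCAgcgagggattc
TARS, chr5:33440956-33440985 (plus strand): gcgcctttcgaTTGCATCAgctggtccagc
IARS, chr9:92293692-92293721 (minus strand): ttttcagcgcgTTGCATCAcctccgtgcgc
AARS, chr16:70289675-70289704 (minus strand): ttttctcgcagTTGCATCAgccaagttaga
GARS, chr7:30594834-30594863 (plus strand): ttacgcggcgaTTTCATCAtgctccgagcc
NARS, chr18:57621804-57621833 (minus strand): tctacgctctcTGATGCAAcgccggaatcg
YARS2, chr12:32756076-32756105 (minus strand): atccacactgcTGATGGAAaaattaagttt

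Read on the motif's strand, the match was TGATGCAA in CARS, MARS, TARS, IARS, AARS and NARS, TGATGAAA in GARS and TGATGGAA in YARS2. The first base of the match lay at -2 from the start in CARS, -4 in MARS, 3 in TARS, -13 in IARS, 15 in NARS and -33 in GARS, and farther off at -187 in AARS and -197 in YARS2. The 7 cytosolic genes with a match had a median log2 ratio on knockdown of -0.52, from -0.85 for CARS to -0.21 for AARS. The 9 cytosolic genes with a window and no match had a median of -0.20, with 2 lower by the rule (SARS and FARSA). FARSA was inside the rule under median-ratio scaling. The 4 without a window had a median of -0.18, with YARS lower. Counted by symbol, several of which can map to the same RefSeq gene, totals exceed those by gene. Over all 251 symbols of the comparison with a match, the synthetases included, the median was -0.095 and 17.9% were lower by the rule, against -0.027 and 8.66% over 9497 symbols with a window and no match. A match is a description of sequence and not evidence of binding. CACGTG, an E-box, was found in IARS, CARS2, EARS2 and MARS2, 4 of the 30 members with a window, against 7.26% of all windows and 13% of the genes of the comparison with a window. In IARS it lay apart from the other match.

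Other ATF4-dependent genes were examined as a list of 20 that holds no synthetase. On knockdown 14 of 20 were lower by the rule and 0 were higher, with a median log2 ratio of -0.38, against 9.14% and 8.67% of all genes. Under median-ratio scaling 10 of 20 were lower, with a median of -0.31, against 5.19% of all genes. ATF4 itself was at 453 RPKM with control siRNA and 270 with DDX3X siRNA (-0.74), and ASNS, the asparagine synthetase, was at 113 and 47.3 RPKM (-1.24). PSAT1 of serine synthesis was at -0.77, CTH of the transsulfuration pathway at -0.79, DDIT4, an inhibitor of mTORC1 signalling, at -0.75 and MTHFD2 of the mitochondrial folate pathway at -0.65. SLC7A5, SLC7A1, CEBPB, ATF3, VLDLR and XPOT lay between -0.22 and 0.080. These ratios come from the same 2 libraries as those of the synthetases.

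Other genes of tRNA charging and of mitochondrial translation had ratios nearer to 0. The 4 genes that complete mitochondrial tRNAs (QRSL1, PET112, GATC and MTFMT) had a median of -0.10 with 1 lower, PET112, a subunit of the amidotransferase that makes glutamine tRNA, at 16.9 and 12.5 RPKM (-0.41). A list of mitochondrial translation factors held 10 genes, among them MTERFD3 of the transcription termination factor family. Of these 10, MTRF1 alone was lower, and their median was -0.056. The 10 genes that process mitochondrial tRNA had a median of -0.0087 and 0 past the rule. The 4 genes of elongation factor 1, which brings charged tRNA to the ribosome, had a median of -0.054 and 0 past the rule. XPOT, the tRNA export receptor, which is also on the ATF4 list, was at -0.22. Under median-ratio scaling the medians of the translation factors, of tRNA processing and of elongation factor 1 lay above 0, at 0.021, 0.071 and 0.027. MTRF1 was then no longer past the rule, and 1 of the 10 genes on the translation factor list was higher, against 14.0% of all genes.

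With WT DDX3X, the medians of both sets lay near GFP as deposited and below it under scaling. The median log2 ratio of WT against GFP was -0.0042 for the cytosolic set, -0.033 for the mitochondrial set and 0.055 over all genes. Below 0 were 10 of 20 cytosolic and 11 of 16 mitochondrial mRNAs, against 37.9% of all genes. Under median-ratio scaling the cytosolic median was -0.11, with 15 of 20 below 0, the mitochondrial median was -0.13, with 13 of 16 below 0, and the all-gene median was -0.036. By the rule of size, CARS (0.31) and PARS2 (0.39) were higher, against 11.3% of all genes, and EARS2 (-0.35) was lower, against 1.9%. Under median-ratio scaling CARS was no longer past the rule, and 6.51% of all genes were higher and 5.45% lower. MARS at 0.22 and SARS at 0.18 came next after CARS in the cytosolic set, so the 3 highest cytosolic ratios with WT were those of mRNAs that were lower on knockdown. RARS, the arginine enzyme, had the lowest cytosolic ratio at -0.18. It was at 105 RPKM with GFP, 92.1 with WT, 88.3 with T275M and 87.6 with G302V, and at 97.0 and 88.8 RPKM with control and DDX3X siRNA. GFP was its highest library.

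PARS2, the proline enzyme of mitochondria, was at 4.10 RPKM with GFP, 5.69 with WT, 5.72 with T275M and 5.70 with G302V, and at 4.88 RPKM with both siRNAs. GFP was the low library and the 3 DDX3X libraries were alike. The ratios to GFP were 0.39, 0.40 and 0.39, from 537 reads in GFP, and they share that library. EARS2, the glutamate enzyme, was at 18.6 RPKM with GFP, 14.3 with WT, 15.0 with T275M and 17.7 with G302V, and at 18.6 and 19.1 RPKM with control and DDX3X siRNA. WT and T275M were its low libraries, while G302V was near GFP. YARS2 was at 24.8, 22.1, 23.2 and 21.4 RPKM in the 4 plasmid libraries and at 24.2 and 24.4 RPKM with control and DDX3X siRNA, a narrow range. An overlapping model shares 18.1% of its exonic bases.

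With T275M, the cytosolic median against GFP was -0.12, the mitochondrial median -0.021 and the all-gene median 0.070. Below 0 were 14 of 20 cytosolic mRNAs, against 37.8% of all genes. No member was lower by the rule, against 3.87% of all genes, and PARS2 alone was higher, against 14.6%. Under median-ratio scaling 5 members were lower and 1 higher, against 9.46% and 8.58% of all genes, and 18 of 20 cytosolic mRNAs were below 0. The scaled medians were -0.22 for the cytosolic set, -0.12 for the mitochondrial set and -0.017 over all genes. The lowest cytosolic ratios were RARS and WARS, both -0.24, and FARSA at -0.24, and the highest were CARS and AARS, both 0.16. AARS was at 103 RPKM with GFP, 113 with WT, 115 with T275M and 101 with G302V, and at 95.7 and 82.3 RPKM with control and DDX3X siRNA. The set difference was -0.10, with limits from counting alone of -0.19 and 0.0014.

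With G302V, nearly all cytosolic mRNAs had ratios below 0. The cytosolic median against GFP was -0.20, the mitochondrial median -0.067 and the all-gene median 0.025. Below 0 were 19 of 20 cytosolic mRNAs, against 45.2% of all genes, with LARS at 0.0049 the exception, which changed sign under median-ratio scaling. The differences were small, and FARSA (-0.31) and SARS2 (-0.33) alone were lower by the rule, against 3.94% of all genes. PARS2 (0.39) alone was higher, against 10.3%. Under median-ratio scaling 6 members were lower and 1 higher, against 6.14% and 7.75% of all genes. The scaled cytosolic median was -0.24, close to the -0.22 of T275M. Just short of the rule were NARS at -0.28, TARS at -0.27, GARS at -0.26, YARS at -0.26 and RARS at -0.25. VARS stood near the upper end at -0.057. It was at 88.7, 82.9, 82.0 and 85.2 RPKM with GFP, WT, T275M and G302V, and at 76.8 and 71.1 RPKM with control and DDX3X siRNA. The set difference was -0.13, with limits from counting alone of -0.26 and -0.032.

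SARS2, the serine enzyme of mitochondria, was at 24.2 RPKM with GFP, 22.1 with WT, 19.8 with T275M and 19.0 with G302V, and at 19.9 and 16.4 RPKM with control and DDX3X siRNA. GFP was the highest library and DDX3X siRNA the lowest. Of its exonic bases, 48.2% are shared with an overlapping gene model, so its reads cannot be assigned to it alone. VARS2, with 63.0% shared, was the steadiest member of the mitochondrial set, at 29.8, 29.6, 29.7 and 29.9 RPKM with GFP, WT, T275M and G302V, and at 28.7 and 27.9 RPKM with control and DDX3X siRNA. WARS2 was at 16.3, 16.1, 15.8 and 14.6 RPKM in the plasmid libraries and at 17.7 and 14.8 RPKM in the siRNA libraries, lowest with G302V and DDX3X siRNA.

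**Figure D3:**
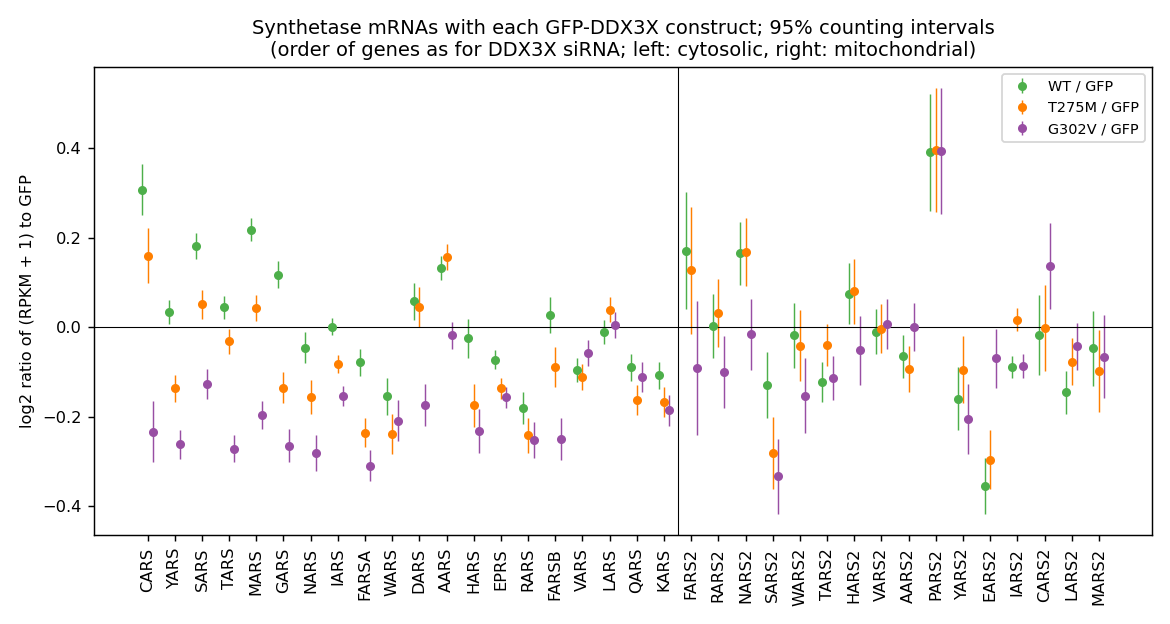
Log2 ratio of (RPKM + 1) to the GFP library for WT (green), T275M (orange) and G302V (purple), with 95% counting intervals, for each synthetase mRNA in the order of the knockdown plot, cytosolic at the left and mitochondrial at the right. For CARS, MARS, SARS and GARS the points step down from WT through T275M to G302V, and PARS2 lies at 0.39 to 0.40 in all 3. The 3 ratios share the GFP library.

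Compared directly, most cytosolic mRNAs showed the same order of the construct libraries. In 15 of 20 cytosolic mRNAs the level was highest with WT, lower with T275M and lowest with G302V, an order that 28.3% of all 13137 genes showed and 3 of 16 mitochondrial mRNAs. Under median-ratio scaling 12 of 20 cytosolic mRNAs showed it, against 20.2% of all genes. WT exceeded G302V in 18 of 20 cytosolic and 8 of 16 mitochondrial mRNAs, against 57.4% of all genes, and under median-ratio scaling in 16 of 20 and 6 of 16, against 46.1%. DDX3X itself was higher with T275M than with WT, at 113%, and lower with G302V, at 65.9% of WT. The amount of DDX3X and the mutation cannot be told apart for G302V. Depth fell in the same order, at 62740000 reads with WT, 47550000 with T275M and 43720000 with G302V. The part of depth in this order was not tested.

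T275M against WT gave a cytosolic median of -0.084, a mitochondrial median of 0.0064 and an all-gene median of 0.0046. Below 0 were 18 of 20 cytosolic and 5 of 16 mitochondrial mRNAs, against 48.6% of all genes. No member passed the rule, which 1.53% of all genes passed below and 1.34% above. The lowest ratios were GARS at -0.25, MARS at -0.17 and YARS at -0.17, and the highest was IARS2 at 0.11.

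G302V against WT gave the widest gap of the over-expression arm, with a cytosolic median of -0.22, a mitochondrial median of -0.0079 and an all-gene median of -0.034. Below 0 were 18 of 20 cytosolic and 8 of 16 mitochondrial mRNAs, against 57.4% of all genes. Lower by the rule were CARS (-0.54, interval -0.60 to -0.48), MARS (-0.41), GARS (-0.38), TARS (-0.32) and SARS (-0.31), 5 of 20 against 8.58% of all genes, and YARS lay just outside at -0.30. No member was higher, against 4.4%, and EARS2 came nearest at 0.28. Under median-ratio scaling 3 cytosolic mRNAs were lower and 1 mitochondrial mRNA was higher, 5.84% of all genes were lower and 7.21% higher, and QARS and WARS lay above 0. The set difference was -0.21, with limits from counting alone of -0.31 and -0.057. The 7 cytosolic genes with TGATGNAA near their start had a median of -0.32 and the 9 without it -0.084. In the same order, medians against GFP were 0.12 and -0.078 with WT, -0.031 and -0.17 with T275M, and -0.23 and -0.21 with G302V. For T275M against WT they were -0.11 and -0.085. Between the controls, GFP against control siRNA, they were -0.14 and 0.079, so a gap was present there too. For G302V against WT, free and complexed enzymes had medians of -0.26 and -0.081. Between the controls, the class I and class II medians were -0.085 and 0.059. Here, for G302V against WT, they were -0.072 and -0.23. By the rule, 2 of 9 class I and 3 of 10 class II mRNAs were lower here. CARS and MARS, with the lowest ratios, are of class I. Of the ATF4-dependent list, 8 of 20 were lower and 0 higher, or 7 and 0 under median-ratio scaling, among them ASNS, at 102 RPKM with WT and 60.9 with G302V (-0.73). CTH was at -0.88 and ATF4 at -0.34.

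The knockdown comparison and that of G302V with WT share no library, and their ratios for the same genes may be set side by side. Across the 20 cytosolic mRNAs, Pearson's r was 0.86 and Spearman's rho 0.83. Across the 16 mitochondrial mRNAs r was 0.64, and across 12595 genes it was 0.48. CARS, MARS, GARS, TARS and SARS had the 5 lowest ratios with G302V and were among the 6 lowest on knockdown, with YARS. For WT against GFP, r with knockdown was -0.74 over the cytosolic set, -0.28 over the mitochondrial set and -0.14 over all genes. Cytosolic mRNAs with lower ratios on knockdown thus tended to have the higher ratios with WT. This concerns their order, since under median-ratio scaling 15 of 20 cytosolic ratios of WT to GFP were below 0. The values for G302V against WT and WT against GFP share the WT library. For G302V against GFP r was 0.42 over the cytosolic set and 0.33 over all genes, and for T275M against GFP it was -0.40 and 0.038. For T275M against WT it was 0.61 and 0.28, so the sign for T275M depended on the library it was set against. Genes are not independent replicates, the genes of a set share their 2 libraries in each ratio, and these values are descriptions without a test.

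**Figure D4:**
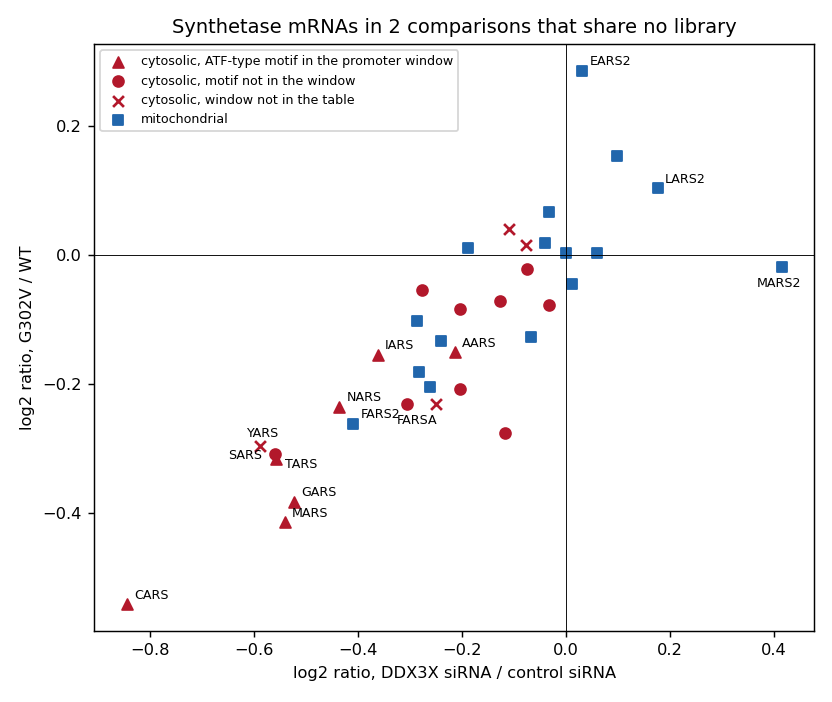
Log2 ratio of (RPKM + 1) on DDX3X knockdown (x axis) against that of G302V to WT (y axis), each point 1 synthetase mRNA, red for cytosolic and blue for mitochondrial. Among the cytosolic mRNAs, triangles hold the ATF-type motif TGATGNAA in the promoter window, circles do not, and crosses have no window. Squares are the mitochondrial mRNAs, drawn alike with or without the motif or a window. CARS lies at -0.85 and -0.54. Of the 5 mRNAs lower by the rule for G302V against WT, CARS, GARS, MARS and TARS are triangles and SARS is a circle. AARS, also a triangle, lies at -0.21 and -0.15.

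The GFP and control siRNA libraries, the controls of the arms, also differed for single members. Their cytosolic median was -0.0078, the mitochondrial median -0.028 and the all-gene median 0.0093. Below 0 were 10 of 20 cytosolic and 9 of 16 mitochondrial mRNAs, against 48.1% of all genes. IARS2 alone was lower by the rule, at 129 RPKM with GFP and 167 with control siRNA (-0.37), against 9.76% of all genes, and no member was higher, against 6.98%. IARS2 was at 174 RPKM with DDX3X siRNA and at 121, 131 and 122 RPKM with WT, T275M and G302V, so it was higher in both siRNA libraries than in all 4 plasmid libraries. In the cytosolic set the control difference ran from -0.23 for IARS and -0.22 for CARS to 0.20 for VARS, beside the -0.85 of CARS on knockdown. Over all 6 libraries, DDX3X siRNA was the lowest for 13 of 20 cytosolic and 7 of 16 mitochondrial mRNAs, against 36.1% of all genes, and G302V was the lowest for 5 of 20 cytosolic mRNAs, against 10.1% of all genes. Under median-ratio scaling these counts for DDX3X siRNA were 11 of 20 and 3 of 16, against 21.1% of all genes. G302V was then the lowest for 3 of 20 cytosolic mRNAs and T275M for 5 of 20, against 1 of 20 for T275M as deposited.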

How the data were processed

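Libraries were prepared with TruSeq kits from total RNA of 6 HEK293T groups, 1 library each, grouped by their labels. Each deposited file gives RPKM per RefSeq accession, as its header states, and the study's methods call the same normalisation FPKM. Per the study's methods and the submitters' processing notes (cutadapt, BWA 0.5.5, hg19), the authors aligned reads to genome, transcript and junction sequences, removed duplicates, counted reads and divided by gene length and total reads. How reads were shared between near-identical copies is not given in the sources used here, so values of members with named pseudogenes (AARS, CARS, FARSB, GARS, KARS, NARS, RARS, WARS, IARS2, TARS2 and WARS2) are uncertain.

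RPKM multiplied by length fell within 0.1 of whole multiples of 1 step for 100% of the rows checked, which gave reads per row and depth (43720000 to 180870000). From the RPKM, log2 ratios were computed with a pseudocount of 1, which understates changes of low genes. A gene entered a comparison with 1 RPKM and 10 reads in at least 1 of the 2 libraries. Intervals are exact (Clopper-Pearson, 95%). Reads carry no molecular identifiers. The limits of a set difference are the medians of the members' interval limits, subtracted. They leave out the spread among members and are not a confidence interval, so whether they reach 0 is not a test. No test was run.

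Per-library values are given for EPRS, GARS, KARS, QARS and the 3 highest and 3 lowest ratios of each set on knockdown and with each construct against GFP. IARS, IARS2 and members near the threshold were added after their values were seen. Members and lists (synthetase sets, class, complex, scaffold, mitochondrial tRNA completion, translation factors and tRNA processing, elongation factor 1, XPOT, ATF4-dependent genes and marker genes) were chosen with earlier results of these data known. Gene positions are from GENCODE on GRCh37, promoter windows from RefSeq on GRCh38.p14. Alternatives were pseudocounts of 0.1 and 10, no filter, a minimum of 10 RPKM, median-ratio scaling, CPM from the recovered reads, the sum of rows, removal of a length and GC fit, and the cytosolic set without EPRS, GARS, KARS and QARS. Median-ratio scaling of the other lists was added after seeing the data. Calculations were tested on simulated data and used Python 3.11.15, numpy 2.4.6, pandas 2.3.3, scipy 1.17.1 and matplotlib 3.10.9.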

Additional observations from a re-analysis of the deposited data

How the results depend on the processing

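The difference between the cytosolic and mitochondrial medians kept its sign under the alternatives run, except between the 2 controls. It lay between -0.25 and -0.19 on knockdown, -0.22 and -0.17 for G302V against WT, -0.15 and -0.13 for G302V against GFP, -0.11 and -0.064 for T275M against GFP, -0.12 and -0.081 for T275M against WT, 0.015 and 0.052 for WT against GFP, and -0.019 and 0.066 for the 2 controls. Counts of members past 0.3 moved more. With a pseudocount of 10 they were 0 for WT, T275M and G302V against GFP (3, 1 and 3 as reported) and 3 for G302V against WT (5 as reported). For T275M against GFP the count was 2 with a pseudocount of 0.1, with CPM, with summed rows and with the length and GC fit removed, 6 under median-ratio scaling and 0 with a minimum of 10 RPKM. For G302V against GFP it was 7 under median-ratio scaling. For GFP against control siRNA it was 0 with the length and GC fit removed (1 as reported). The other 44 of 56 counts stayed within 1.5 times the reported one. Median-ratio scaling moved the all-gene median by 0.072 on knockdown and by at most 0.091 elsewhere in size, for WT against GFP.

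No paired analysis was possible because each group holds 1 library, and no replicate was left out for the same reason. Counting intervals leave out the spread between cultures.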

Other observations

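TRIT1, which modifies an adenosine beside the anticodon of several tRNAs, stood out among the genes of mitochondrial tRNA processing. It was at 11.2 RPKM with GFP, 16.2 with WT, 16.9 with T275M and 10.5 with G302V, and at 10.4 and 11.1 RPKM with control and DDX3X siRNA. WT and T275M were the high libraries and the other 4 were alike, with a log2 ratio of G302V to WT of -0.58 (interval -0.68 to -0.47). MTO1, another tRNA-modifying enzyme of this list, was at 15.6 RPKM with WT and 12.0 with G302V (-0.35). For G302V against WT, 2 of 10 genes of the list were lower by the rule, against 8.58% of all genes. Under median-ratio scaling 1 of 10 was lower, against 5.84%. The list's median was -0.0038 for WT, -0.10 for T275M and -0.096 for G302V against GFP.

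Of the scaffold of the multisynthetase complex, AIMP2 alone was lower with T275M, at 76.2 RPKM with GFP and 59.6 with T275M (-0.35). As deposited, none of the 4 genes of mitochondrial tRNA completion and none of the 4 of elongation factor 1 passed 0.3 in any comparison of constructs. Of the 10 genes on the list of mitochondrial translation factors, MRRF alone passed as deposited, for G302V against WT (-0.31). Under median-ratio scaling 1 of 4 completion genes and 1 of 4 elongation factor 1 genes were lower with WT against GFP. With T275M 1 of 4 and 2 of 4 were lower, as were 2 of 10 genes on the translation factor list. MRRF no longer passed under this scaling. Of the 20 ATF4-dependent genes, 7 were higher and 1 lower with WT against GFP, led by DDIT3 at 14.0 RPKM with GFP and 24.2 with WT (0.75), where 11.3% of all genes were higher and 1.9% lower. With T275M against GFP 6 were higher and 2 lower, against 14.6% and 3.87% of all genes. With G302V against GFP, 2 were higher and 4 lower, against 10.3% and 3.94%. Under median-ratio scaling 4 were higher and 1 lower with WT, 5 and 4 with T275M, and 2 and 6 with G302V. Between the 2 controls, EEF1E1 was at 40.5 RPKM with GFP and 28.1 with control siRNA (0.51), and 5 ATF4-dependent genes were lower and 3 higher, among them CHAC1 (0.72) and ASNS (-0.45), against 9.76% and 6.98% of all genes.

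Fibroblast markers reached 1 RPKM for 1 of 4 genes and leukocyte markers for 1 of 3, with CD3E at 0 in all libraries.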
